A study of Mus musculus with 12 samples.

Results

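The 40 mouse genes that encode the subunits of voltage-gated sodium channels and voltage-gated calcium channels were followed through 12 RNA sequencing libraries of sorted dermal papilla cells. The genes were picked by symbol alone, as every Scn gene with a number and the letter a or b and every Cacna1, Cacna2d, Cacnb and Cacng gene, which gave 40 of the 25887 genes measured. They comprise 10 sodium channel alpha genes, 4 sodium channel beta genes, 10 calcium channel alpha1 genes, 4 alpha2delta genes, 4 calcium channel beta genes and 8 gamma genes.

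Voltage-gated channels are membrane pores that open when the voltage across the membrane changes. In sodium channels the alpha subunit is the pore, and the beta subunits, which also resemble adhesion molecules, set how it opens and how much of it reaches the surface. In calcium channels the alpha1 subunit is the pore, and the alpha2delta and cytoplasmic beta subunits help it reach the membrane. Most genes of the gamma family are better known as partners of AMPA-type glutamate receptors. These channels are best known in nerve and muscle, whereas the dermal papilla is a small mesenchymal cluster under each hair follicle that signals to the epithelium above it through the hair cycle.

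There were 3 libraries in each of 4 groups of mice, which either had an overactive Smo confined to the dermal papilla (Smo*) or were wild type (WT). Smo, a protein of the cell membrane, relays Hedgehog signals inward. At postnatal day 28 (P28) the Smo* libraries came from males in anagen I-III and the WT libraries from males in anagen VI, so that genotype and stage of hair growth cannot be told apart at that age. At postnatal day 20 (P20) the Smo* and WT libraries came from females in telogen, the resting stage, so age, stage and sex cannot be told apart between the ages. The sources used here give neither the promoter or recombinase that placed the active Smo nor the markers used for sorting. Since the labels do not say whether each library is its own animal, the p-values cover only variation among these samples, and that may be technical.

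Values are normalized counts, which are the reads on a gene divided by 1 scaling factor per library, made by the authors. Each library held 36323058 to 48926831 reads on genes. P28 Smo* replicate 3 stood apart: it had reads on 15453 genes, against 17337 to 17926 in the other 11 libraries, and its summed level of 12 dermal papilla markers was 45442, against 208640 and 327112 in the other P28 Smo* libraries. This sum was 373293 to 436875 in P28 WT, 60792 to 74446 in P20 Smo* and 34443 to 38734 in P20 WT. The Hedgehog target Gli1 fitted the labels, at 4259 ± 182 in P28 Smo* and 1487 ± 93.0 in P28 WT, and at 4477 ± 829.9 in P20 Smo* and 1515 ± 645 in P20 WT (SD, n = 3 each).

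Levels of different genes were compared as normalized counts per kilobase of exon. Cacna1g, which encodes a low-voltage (T-type) calcium channel pore, had the highest level of the 40 genes in 3 of the 4 groups. Its level per kilobase was 626 ± 84.6 in P28 Smo* and 651 ± 33.8 in P28 WT, and 1563.5 ± 235 in P20 Smo* and 1503 ± 272 in P20 WT. In P28 WT the first place was held by Scn4b, a sodium channel beta subunit, at 1304 ± 170.2 per kilobase, against 147 ± 71.2 in P28 Smo*. In each group the leading gene and the next did not overlap within 1 SD. Among the genes that followed in P28 Smo* were Cacnb3 (509.8 ± 26.0) and Scn7a (388 ± 125), whose levels overlapped. In P28 WT the places after Cacna1g went to Cacng7 (453 ± 60.2), Scn7a (378 ± 43.4) and Cacnb3 (373 ± 20.9), which also overlapped each other. At P20 Cacnb3 had 384 ± 4.67 in Smo* and 361 ± 77.7 in WT, and Scn7a had 314 ± 61.4 in Smo* and 288 ± 20.6 in WT.

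Scn7a, which encodes Nax, an unusual family member known as a sensor of sodium concentration, made up 84.6% to 94.3% of the sodium channel alpha level in the group means. Among calcium channel pores, Cacna1g held 74.5% ± 2.65 in P28 Smo* and 68.6% ± 2.32 in P28 WT, and 87.1% ± 0.75 in P20 Smo* and 86.6% ± 1.78 in P20 WT. Cacna1c, an L-type pore, held 4.97% ± 0.63 in P28 Smo* and 16.5% ± 2.13 in P28 WT. Cacna2d1 (82.5% to 92.9% of its class) and Cacnb3 (83.5% to 90.7%) led in all 4 groups. No test was run on these shares.

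**Figure D1:**
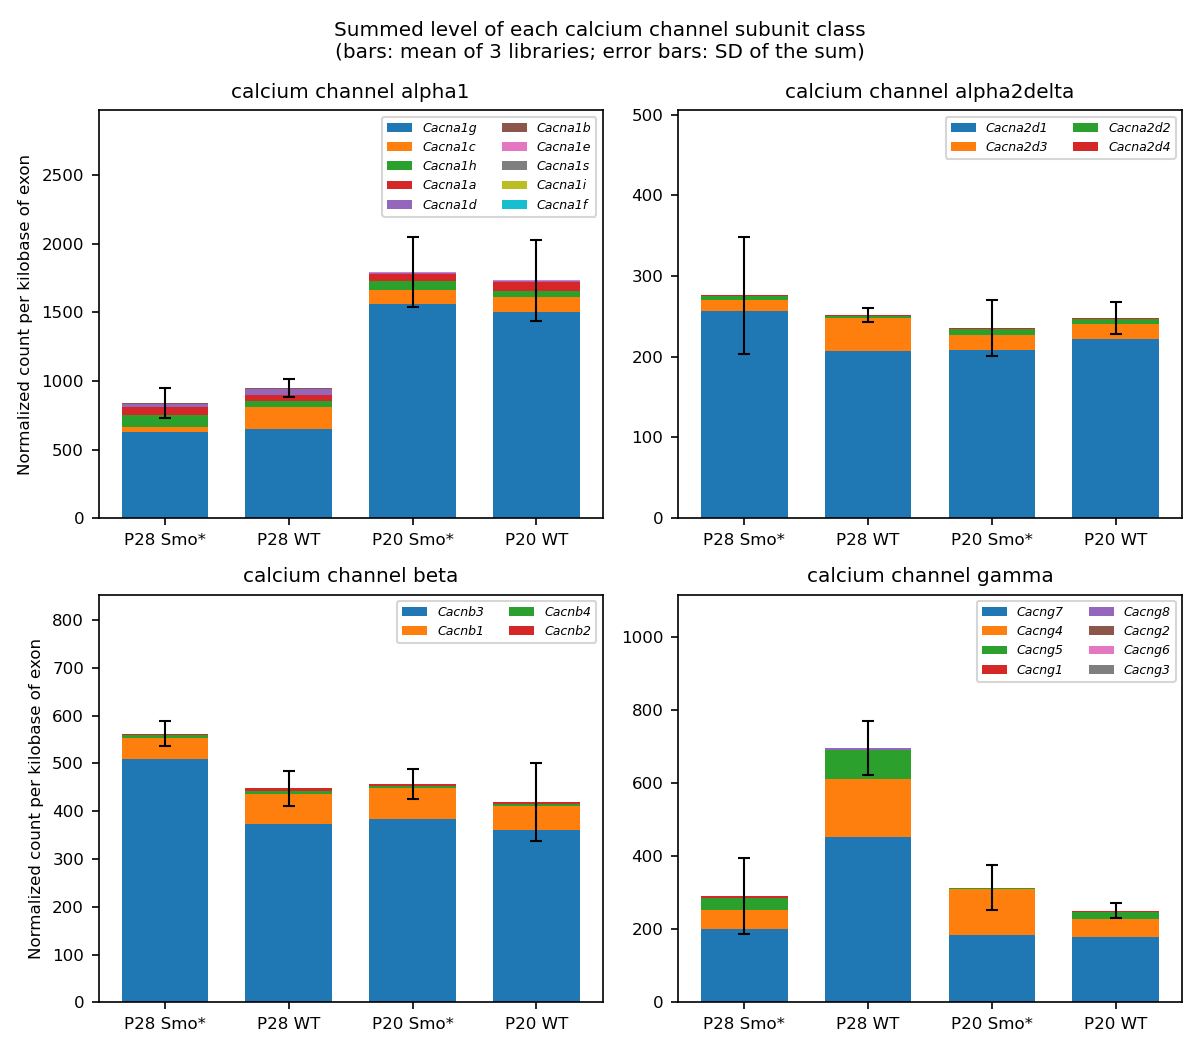
Normalized count per kilobase of exon summed over the genes of each calcium channel subunit class, in P28 Smo*, P28 WT, P20 Smo* and P20 WT. Stacked bars are means of 3 libraries and error bars the SD of the sum. Cacna1g makes up 74.5% of the alpha1 bar in P28 Smo* and 68.6% in P28 WT, and Cacna1c 4.97% in P28 Smo* and 16.5% in P28 WT.

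A gene was tested where its mean was at least 10 normalized counts, which held for 26 of the 40 genes at P28 and 25 at P20, with Scn4a the gene added at P28. Another 14 genes were under that minimum in both, among them Scn1a, Scn9a, Scn10a, Scn11a, Cacna1f, Cacna1i, Cacna1s, Cacna2d4, Cacng1, Cacng2, Cacng3, Cacng6 and Cacng8. Scn11a, known from pain-sensing neurons, had no read in any of the 12 libraries. Another 8 of these genes stayed under 10 in every library. The highest single value among the 14 was 21.8 for Scn1a in P28 Smo* replicate 2. Cacna1s, the pore of the skeletal muscle L-type channel, had reads in P28 Smo* replicate 1 and P20 WT replicate 1 only, at 5.51 and 1.13. Cacng8, which encodes an AMPA receptor partner, was at 0 in all 3 P28 Smo* libraries. It had 5.12, 10.7 and 6.45 in the P28 WT libraries. This gene was under the minimum for the main test, and the authors' deposited table gives it an adjusted p of 0.0723 at P28.

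Whether genotype changed these genes was asked first at P28, with limma on log2(normalized count + 1) over all genes, at an adjusted p under 0.05. In P28 Smo* against P28 WT, 9 of the 26 tested channel genes passed, where 8.9% of all genes tested passed. The 7 lower genes were Scn4b, Scn3a, Scn2b, Cacna1c, Cacna2d3, Cacng4 and Cacng7, and the 2 higher genes were Cacna1h and Cacnb3. Over all genes tested, 4.85% were lower and 4.05% higher. The median log2 fold change was -0.27 over the 26 channel genes and -0.01 over all genes. The Smo* and WT libraries did not overlap in 13 of the 26, against 33.4% of all genes, and 13 had an unadjusted p under 0.05, against 26.4%. In sorted bulk samples, fewer cells that express a gene and less of its RNA per cell cannot be told apart, which holds for every difference given here.

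Scn4b was the sodium channel gene with the largest fall. It had 829, 1026 and 337 normalized counts in the P28 Smo* libraries, against 6032, 5980.2 and 7474 in the P28 WT libraries. Every Smo* library was far under every WT library, and replicate 3 was the lowest. The log2 fold change was -3.29 (SE 0.37, limma adjusted p = 0.00174). Without P28 Smo* replicate 3 it was -2.81 (limma adjusted p = 7.07e-05). Scn2b, which encodes another beta subunit and lies beside Scn4b, had 159.8, 218 and 72.7 in P28 Smo* and 492, 581 and 616 in P28 WT, with no overlap. Its log2 fold change was -2.03 (SE 0.37, limma adjusted p = 0.0149), and leaving out P28 WT replicate 2 or 3 took the adjusted p above 0.05, within 0.00216 to 0.0691 over the libraries left out in turn.

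Among the sodium channel pores only Scn3a, best known from the developing brain, passed at P28. Its values were 71.6, 65.4 and 67.4 in the P28 Smo* libraries, against 572, 579.6 and 615 in the P28 WT libraries. The 3 values within each group lay close together, and the groups were well apart. The log2 fold change was -3.09 (SE 0.18, limma adjusted p = 0.000106), and -3.09 (limma adjusted p = 7.91e-05) without P28 Smo* replicate 3. Scn8a, the main channel of the axon initial segment, had 59.5, 34.1 and 15 in P28 Smo*, against 76.0, 163 and 126 in P28 WT. The groups did not overlap, but the log2 fold change of -1.85 (SE 0.53) missed the threshold (limma adjusted p = 0.0717). It passed without P28 Smo* replicate 1 (limma adjusted p = 0.0493), and over the alternatives the adjusted p ran from 0.0123 to 0.232. Scn7a had 3499.9, 1799 and 3247 in P28 Smo* and 3113, 2731 and 2482 in P28 WT, which overlapped, with a log2 fold change of -0.02 (SE 0.24, limma adjusted p = 0.976).

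Of the calcium channel pores, Cacna1c fell and Cacna1h rose in P28 Smo*. Cacna1c, the L-type channel of heart, smooth muscle and brain, had 888, 871 and 866 in the P28 Smo* libraries, against 2689, 3966 and 3345 in the P28 WT libraries. The Smo* values were nearly equal and all under the lowest WT value. Its log2 fold change was -1.91 (SE 0.15, limma adjusted p = 0.000414), and -1.90 without P28 Smo* replicate 3. Cacna1h, a T-type pore, had 890.4, 1011 and 615 in P28 Smo*, against 408, 401 and 418 in P28 WT, again with no overlap. Its log2 fold change was 1.0 (SE 0.19, limma adjusted p = 0.0185). The call was lost when P28 Smo* replicate 1 or any P28 WT library was left out, within 0.00133 to 0.0763. Exons of Cacna1h overlap those of Tpsg1 on the other strand over 158 bases, and the sources used here do not say whether reads were counted by strand. Cacna1g, the highest pore, did not differ beyond its spread, with 5569, 7266 and 6200.3 in P28 Smo* and 6480.2, 6989.8 and 6339 in P28 WT (log2 fold change -0.06, SE 0.13, limma adjusted p = 0.789).

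Cacna1d, an L-type pore that opens at lower voltages than Cacna1c, had 268, 357 and 83.4 in P28 Smo*, against 401, 499 and 629 in P28 WT. The groups did not overlap, and the log2 fold change of -1.32 (SE 0.49) did not pass (limma adjusted p = 0.135). The authors' deposited table gives Cacna1d at P28 an adjusted p of 0.0288. Cacna1b, the N-type pore of nerve endings, had 89.3, 91.0 and 24.6 in P28 Smo* and 79.4, 77.2 and 90.2 in P28 WT. These groups overlapped, and replicate 3 was the lowest Smo* library for both genes.

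The subunits that accompany the calcium pores moved in both directions at P28. Cacna2d3, an alpha2delta subunit, had 104, 178 and 89.8 in P28 Smo*, against 321, 372 and 383 in P28 WT. The groups were apart, with a log2 fold change of -1.59 (SE 0.28, limma adjusted p = 0.0128), and leaving out P28 WT replicate 2 or 3 lost the call, within 0.00360 to 0.0638. Cacna2d1, the alpha2delta subunit that binds gabapentin, had 3771, 3554 and 2223 in P28 Smo* and 2605, 2669 and 2457 in P28 WT, which overlapped through replicate 3. It did not pass at a log2 fold change of 0.27 (SE 0.20, limma adjusted p = 0.419) and passed without that library, at 0.51 (limma adjusted p = 0.0239, within 0.0239 to 0.728 over the libraries left out). Cacnb3, a cytoplasmic beta subunit, had 2164, 1984 and 1984 in P28 Smo*, against 1413, 1498 and 1581 in P28 WT. The groups did not overlap, but the rise was small, at 0.45 (SE 0.11, limma adjusted p = 0.0402). Only leaving out P28 Smo* replicate 3 kept that call, within 0.0406 to 0.124.

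In the gamma family, Cacng4, an AMPA receptor partner, had 174, 184 and 188 in P28 Smo*, against 515, 688 and 493 in P28 WT. The Smo* values were close together and all under WT, with a log2 fold change of -1.61 (SE 0.18, limma adjusted p = 0.00179), and -1.64 without P28 Smo* replicate 3. Cacng7, a further member known to bind AMPA receptors, had 574, 636 and 264 in P28 Smo*, against 964, 1095 and 1257 in P28 WT. Its groups did not overlap, at -1.26 (SE 0.31, limma adjusted p = 0.0453). The value was -0.86 (limma adjusted p = 0.0106) without P28 Smo* replicate 3, and the call was lost without P28 Smo* replicate 1 or any P28 WT library, within 0.0106 to 0.157. Cacng5 had 78.2, 288 and 23.5 in P28 Smo* and 257, 375 and 288 in P28 WT. It spread widely among the Smo* libraries and did not pass (log2 fold change -1.88, SE 0.76, limma adjusted p = 0.162). Without P28 Smo* replicate 2, the highest of the 3, it passed (limma adjusted p = 0.0173, within 0.0173 to 0.355 over the libraries left out).

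**Figure D2:**
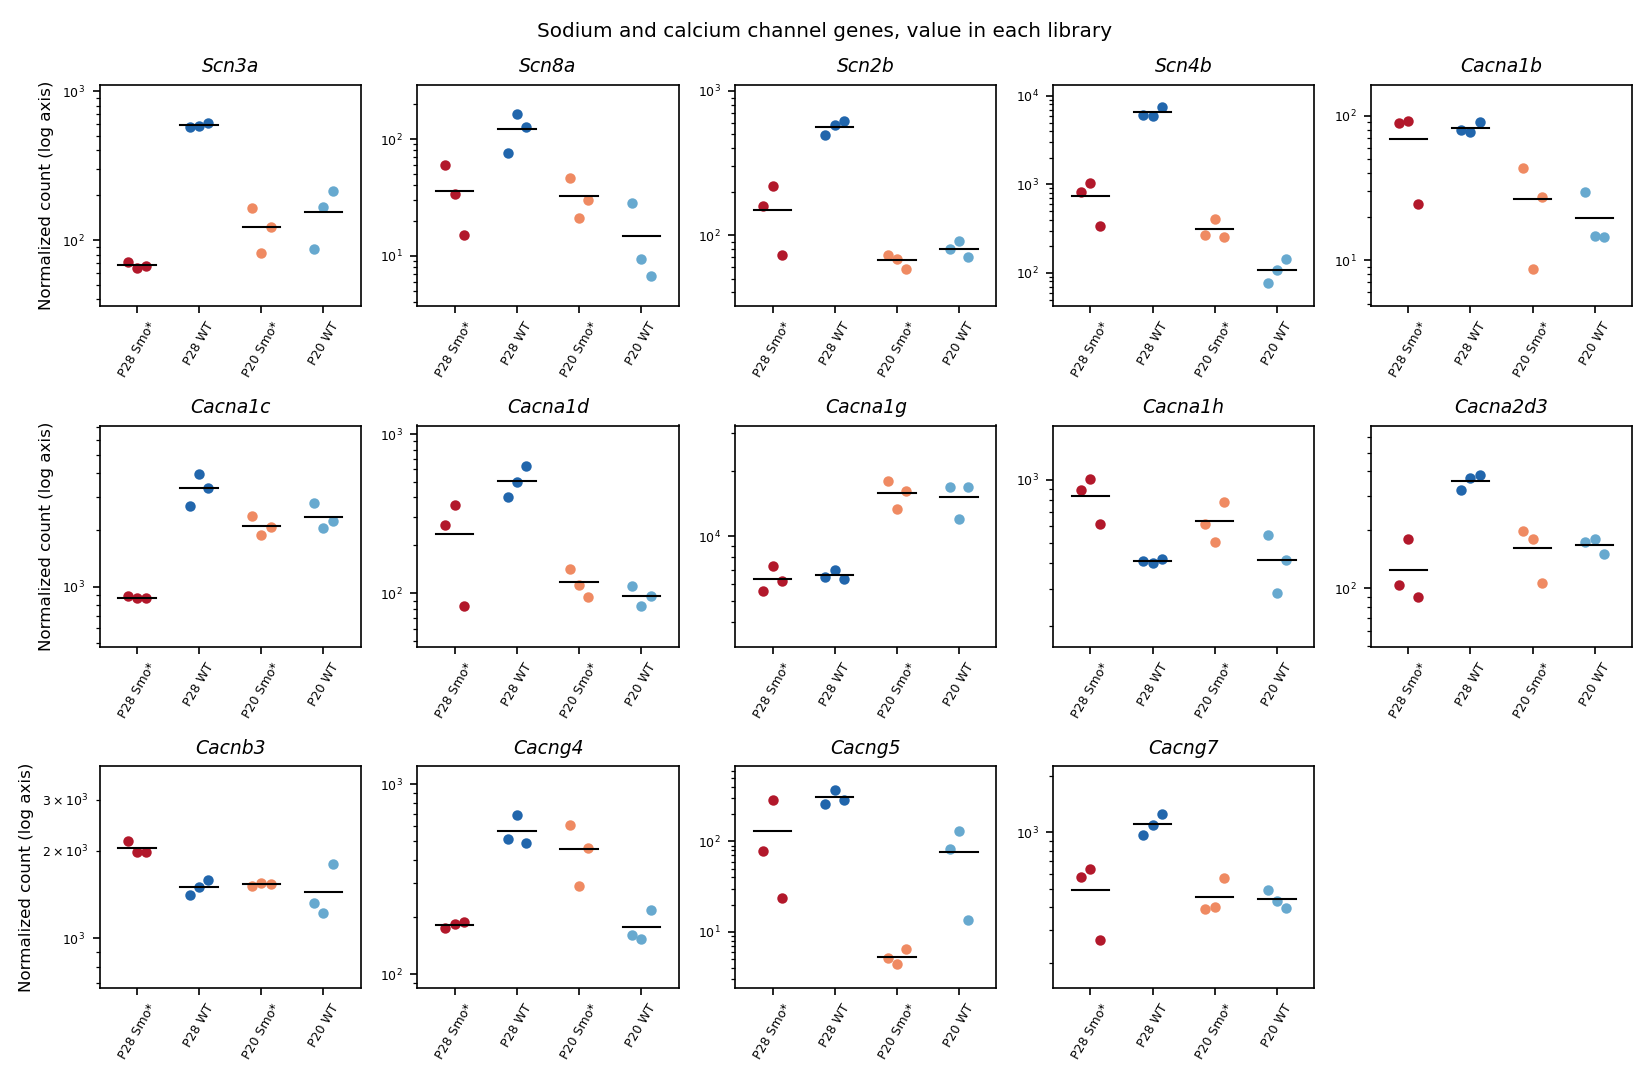
Normalized count in each library (log axis) of the 14 channel genes called in any comparison, with groups in the order P28 Smo*, P28 WT, P20 Smo* and P20 WT. Points are libraries and bars means of 3. Scn3a, Scn4b, Cacna1c and Cacng4 in P28 Smo* lie under all P28 WT libraries, and Cacna1g is lower in both P28 groups than in both P20 groups.

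The other 9 tested genes did not pass at P28. They were Scn2a, Scn3b, Scn4a, Cacna1a, Cacna1e, Cacna2d2, Cacnb1, Cacnb2 and Cacnb4. Cacna1a, the P/Q-type pore of nerve endings, had 527 to 749 normalized counts in P28 Smo* and 522 to 606 in P28 WT. Cacna2d2 had the largest log2 fold change of the 9, at 1.20 (SE 0.59, limma adjusted p = 0.238), on values of 22.5 to 56.9 in P28 Smo* and 8.29 to 22.2 in P28 WT.

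Markers of cells that are known for these channels were looked at beside these results. The 10 neuron markers summed to 122 to 293 in P28 Smo* and 197 to 261 in P28 WT, and Elavl4 and Nefl were at 0 in both groups. Of the 3 neuron markers tested at P28, Syt1 was lower (log2 fold change -4.08, limma adjusted p = 0.0295), at 1.32 ± 1.43 in P28 Smo* and 36.2 ± 16.9 in P28 WT. The 9 Schwann cell markers summed to 1640 to 1744 in P28 Smo* and 1504 to 1943 in P28 WT, with Cdh19 lower (-3.37, limma adjusted p = 0.00291) among 7 tested. The 15 smooth muscle and pericyte markers summed to 33070 to 44598 in P28 Smo* and 29869 to 33222 in P28 WT, with Cnn1 (1.21) and Mylk (0.79) higher and Rgs5 (-0.65) lower at limma adjusted p of 0.0307, 0.0333 and 0.0424. The 8 endothelial markers summed to 3354 to 5625 in P28 Smo* and 1716 to 3317 in P28 WT, with Cdh5 (4.37, limma adjusted p = 0.00125) and Pecam1 (1.53, limma adjusted p = 0.0146) higher. Of the 12 dermal papilla markers, Rspo4, Corin, Lef1 and Fgf10 were lower and Sox18 higher in P28 Smo*. The calls of Syt1, Cnn1, Mylk, Rgs5 and Fgf10 were each lost on leaving out any P28 WT library, that of Pecam1 without P28 WT replicate 1 or 2 and that of Lef1 without P28 WT replicate 2. The part of these cells and markers in the channel results was not tested.

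At P20 none of the 25 tested channel genes passed in Smo* against WT by limma, where 0.696% of all genes tested passed, 0.485% higher and 0.212% lower. An unadjusted p under 0.05 was reached by 5 of the 25, against 11.4% of all genes. No channel gene passed with edgeR on the recovered reads, and 3 passed with DESeq2, namely Scn4b, Cacng4 and Cacng5. The groups did not overlap for 4 of the 25, against 16.4% of all genes. The median log2 fold change was 0.03 over the 25 channel genes and 0.00 over all genes.

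Scn4b had the smallest adjusted p of the channel genes at P20, with a positive fold change. It had 269, 407 and 254 normalized counts in the P20 Smo* libraries, against 76.9, 108 and 142 in the P20 WT libraries. Each Smo* library was above each WT library, at a log2 fold change of 1.51 (SE 0.28, limma adjusted p = 0.0609). The DESeq2 adjusted p on the recovered reads was 7.64e-05, within 7.64e-05 to 0.215 over all alternatives, and the authors' deposited table gives Scn4b an adjusted p of 0.00219. Cacng4 had 609, 291 and 460.0 in P20 Smo*, against 161, 153 and 218 in P20 WT. Again there was no overlap, at 1.31 (SE 0.28, limma adjusted p = 0.0953). A fit that paired each Smo* library with the WT library closest in title number called Cacng4 (limma adjusted p = 0.0494, within 7.17e-05 to 0.330 over all alternatives) and no other channel gene. The authors' deposited table gives Cacng4 at P20 an adjusted p of 7.17e-05.

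Cacng5 was lower in every P20 Smo* library, at 5.16, 4.36 and 6.39, against 82.5, 132 and 13.5 in P20 WT. The WT values ranged widely, and the log2 fold change of -3.12 (SE 0.78) did not pass (limma adjusted p = 0.155). The DESeq2 adjusted p of Cacng5 on the recovered reads was 5.38e-05, whereas the authors' deposited table gives it an adjusted p of 0.267. Leaving out P20 WT replicate 3, the lowest of the WT libraries, gave -4.08 (limma adjusted p = 0.0218, within 0.0218 to 0.492 over the libraries left out). Cacna1e, the R-type pore of neurons, had 67.1 to 94.9 in P20 Smo* and 31.7 to 47.9 in P20 WT, with no overlap, at 1.11 (SE 0.29, limma adjusted p = 0.178). Scn3a and Cacna1c, the channel genes with the smallest adjusted p at P28, did not pass at P20. Scn3a had 163, 81.9 and 123 in P20 Smo* and 87.0, 167 and 212 in P20 WT. Cacna1c had 2353, 1874 and 2063 in P20 Smo* and 2766, 2039.7 and 2233 in P20 WT. Both pairs of groups overlapped. Beside these results, the dermal papilla markers Hhip (3.53, limma adjusted p = 9.28e-05) and Sox18 (3.14, limma adjusted p = 0.0309) and the smooth muscle marker Myocd (1.84, limma adjusted p = 0.0150) were higher in P20 Smo*, and no neuron, Schwann cell or endothelial marker passed. The calls of Sox18 and Myocd were lost without P20 WT replicate 2, and that of Sox18 also without P20 Smo* replicate 2 or P20 WT replicate 3. Neuron markers summed to 234 to 348 in P20 Smo* and 185 to 293 in P20 WT, and Schwann cell markers to 896 to 1609 in P20 Smo* and 814 to 1211 in P20 WT. The part of these markers was not tested.

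**Figure D3:**
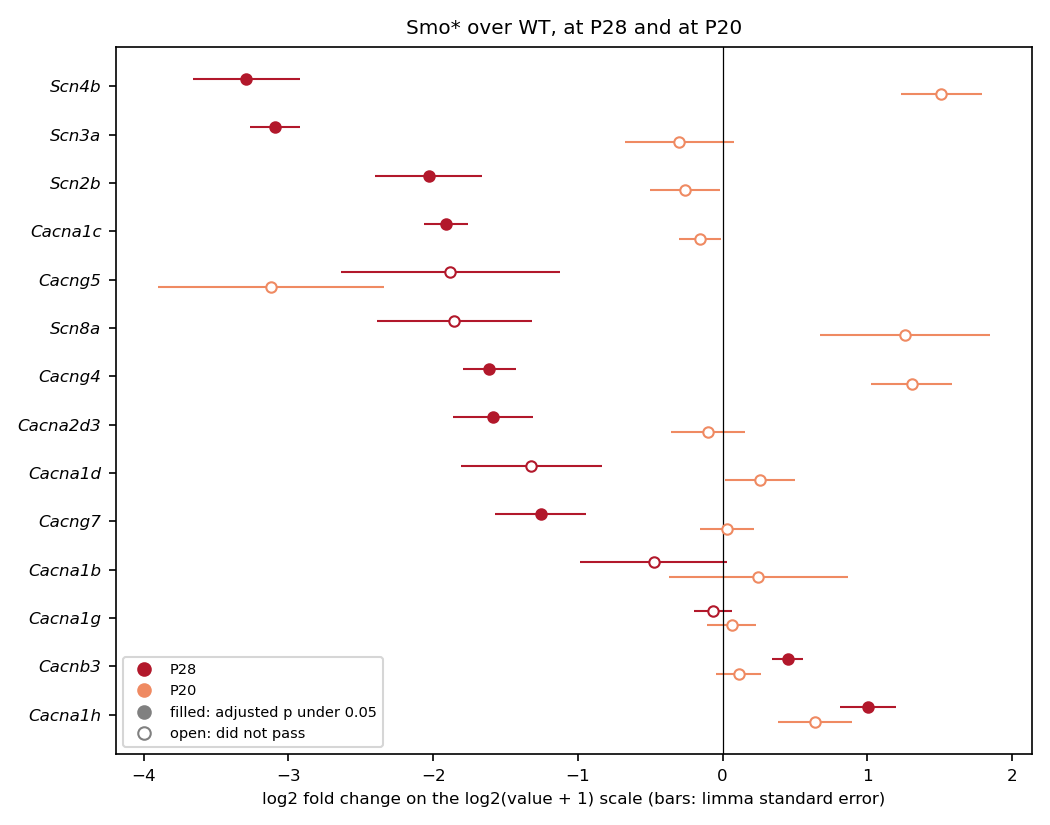
Log2 fold change of Smo* over WT for the 14 channel genes called in any comparison, at P28 and at P20, with the limma standard error as bars and filled points for an adjusted p under 0.05. Scn4b is at -3.29 at P28 and 1.51 at P20, and no P20 point is filled.

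The difference between the Smo* effect at P28 and the Smo* effect at P20 was tested as an interaction term in 1 limma fit of all 12 libraries. Of 26 tested channel genes 5 passed, all with a lower effect at P28, where 4.72% of all genes passed, 1.89% with a higher and 2.83% with a lower effect. An unadjusted p under 0.05 was reached by 12 of the 26, against 21.7% of all genes. The difference was -4.80 for Scn4b (SE 0.50, limma adjusted p = 0.000370), -2.92 for Cacng4 (SE 0.35, limma adjusted p = 0.000863) and -1.75 for Cacna1c (SE 0.22, limma adjusted p = 0.00100). It was -2.79 for Scn3a (SE 0.44, limma adjusted p = 0.00499) and -1.77 for Scn2b (SE 0.46, limma adjusted p = 0.0484). For Scn4b and Cacng4 the 2 effects had opposite signs, and for Cacna1c, Scn3a and Scn2b both were negative. The call of Scn2b held without P28 Smo* replicate 2 or 3 and was lost on leaving out any of the other 10 libraries, within 0.0145 to 0.127, whereas the other 4 calls held in each case. Without P28 Smo* replicate 3 the difference for Scn4b was -4.32 (limma adjusted p = 0.000100). Cacna2d3 (-1.48, limma adjusted p = 0.0518) and Scn8a (-3.11, limma adjusted p = 0.0549) lay just outside the threshold. Without P28 Smo* replicate 2, 8 channel genes passed, Cacna2d3 and Cacng7 among them. This comparison uses the same libraries as the 2 genotype comparisons and is not separate evidence on them.

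P28 was then set against P20 within each genotype, in the same 12-library fit. In Smo* 4 of 26 tested channel genes passed, 1 higher and 3 lower at P28, where 3.46% of all genes passed, 1.98% higher and 1.47% lower. In WT 12 of 26 passed, 11 higher and 1 lower at P28, where 25.4% of all genes passed, 13.5% higher and 11.9% lower. An unadjusted p under 0.05 was reached by 12 of the 26 in Smo*, against 22.8% of all genes, and by 16 in WT, against 37.6%. The ages did not overlap for 7 of the 26 in Smo*, against 24.4% of all genes, and for 17 in WT, against 45.1%. These comparisons share their libraries with the genotype comparisons. The median log2 fold change of the 26 channel genes was 0.22 in Smo* and 0.52 in WT, against 0.00 in Smo* and -0.01 in WT over all genes.

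Scn4b and Scn2b did not pass with age over the 3 Smo* libraries of each age, at 1.12 (SE 0.36, limma adjusted p = 0.0948) for Scn4b and 1.02 (SE 0.32, limma adjusted p = 0.0937) for Scn2b. P28 Smo* replicate 3 had 337 for Scn4b, within the 254 to 407 of P20 Smo*, whereas the other P28 Smo* libraries lay above that range. Without replicate 3 both passed, at 1.60 (limma adjusted p = 0.00373) for Scn4b and 1.47 (limma adjusted p = 0.00213) for Scn2b, within 0.00213 to 0.246 over the libraries left out for the 2 genes. In WT Scn4b had the largest rise of the channel genes, with a log2 fold change of 5.92 (SE 0.36, limma adjusted p = 9.09e-07) between the 6032, 5980.2 and 7474 normalized counts at P28 and the 76.9, 108 and 142 at P20. Scn2b rose in WT by 2.79 (SE 0.32, limma adjusted p = 0.000108), on values of 492 to 616 in P28 WT and 70.3 to 90.5 in P20 WT.

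Cacna1g fell in both genotypes. It had 5569, 7266 and 6200.3 in P28 Smo*, against 18016, 13290.5 and 16242 in P20 Smo*. It had 6480.2, 6989.8 and 6339 in P28 WT, against 16854, 12062 and 16806 in P20 WT. No P28 library reached the lowest P20 library in either genotype. The log2 fold change was -1.32 (SE 0.16, limma adjusted p = 0.00217) in Smo* and -1.19 (SE 0.16, limma adjusted p = 0.000289) in WT, and the interaction term of -0.13 (SE 0.22) did not pass (limma adjusted p = 0.779).

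Cacna1c and Cacng4 each changed with age in opposite directions in the 2 genotypes. Cacna1c fell in Smo*, at -1.25 (SE 0.15, limma adjusted p = 0.00225), and rose in WT, at 0.50 (SE 0.15, limma adjusted p = 0.0304). The WT groups overlapped, and that call was lost without P20 WT replicate 2 or 3 or P28 WT replicate 2 or 3, within 0.0119 to 0.122. Cacng4 fell in Smo*, at -1.25 (SE 0.25, limma adjusted p = 0.0241), with 174 to 188 in P28 Smo* and 291 to 609 in P20 Smo*. The call was lost without P20 Smo* replicate 1 or 3 or P28 Smo* replicate 1 or 2, within 0.00883 to 0.0868. In WT Cacng4 rose, at 1.67 (SE 0.25, limma adjusted p = 0.000570), with 493 to 688 in P28 WT and 153 to 218 in P20 WT. For Cacna1c and Cacng4 the interaction term given above tests whether the age changes differ between the genotypes, not whether their directions are opposite.

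The other 6 genes that passed with age in WT included pores and companions, and none of them passed in Smo*. In Smo* their log2 fold changes were -0.79 for Scn3a, 0.02 for Scn8a, 0.79 for Cacna1d, 0.05 for Cacng7, -0.39 for Cacna2d3 and 1.37 for Cacna1b (limma adjusted p from 0.161 to 0.987). Without P28 Smo* replicate 3, Cacna1d passed in Smo* at 1.41 (limma adjusted p = 0.00685) and Cacna2d1 at 0.50 (limma adjusted p = 0.0359), so that 8 channel genes passed in place of 4. In WT Scn3a rose by 2.01 (SE 0.31, limma adjusted p = 0.000733) and Scn8a by 3.14 (SE 0.60, limma adjusted p = 0.00267). Cacna1d rose by 2.37 (SE 0.42, limma adjusted p = 0.00176), with 401, 499 and 629 in P28 WT, against 111, 83.3 and 96.4 in P20 WT. Exons of Cacna1d overlap those of Chdh on the other strand over 589 bases. Cacng7 rose by 1.34 (SE 0.28, limma adjusted p = 0.00471) and Cacna2d3 by 1.09 (SE 0.28, limma adjusted p = 0.0129), the call of Cacna2d3 being lost without P28 WT replicate 3. Cacna1b rose by 2.10 (SE 0.60, limma adjusted p = 0.0237), on values of 77.2 to 90.2 in P28 WT and 14.5 to 29.4 in P20 WT. With single libraries left out, that call held only without P20 WT replicate 1, within 0.0261 to 0.0776. Of these 6 genes only Scn3a passed the test of the difference between genotypes, which is the interaction term above.

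Cacng5 was the 1 gene called as higher with age in both genotypes by the main fit. Scn4b, Scn2b, Cacna1d and Cacna1b also had positive log2 fold changes in both but did not pass in Smo*. Of these, Scn4b, Scn2b and Cacna1d passed there without P28 Smo* replicate 3, as given above. The log2 fold change of Cacng5 was 3.72 (SE 0.85, limma adjusted p = 0.0388) in Smo* and 2.48 (SE 0.85, limma adjusted p = 0.0492) in WT. In Smo* it had 78.2, 288 and 23.5 at P28 and 5.16, 4.36 and 6.39 at P20, and in WT 257, 375 and 288 at P28 and 82.5, 132 and 13.5 at P20. The ages did not overlap in either genotype, but the spread within groups was wide. With single libraries left out, the Smo* call held only without P28 Smo* replicate 3 (limma adjusted p = 0.00541, within 0.00541 to 0.0980), and the WT call only without P20 WT replicate 2 (within 0.0334 to 0.192). Neither edgeR nor DESeq2 called the WT difference. The values at P20 in Smo* are so low that a fold change on the log2(normalized count + 1) scale understates the difference.

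**Figure D4:**
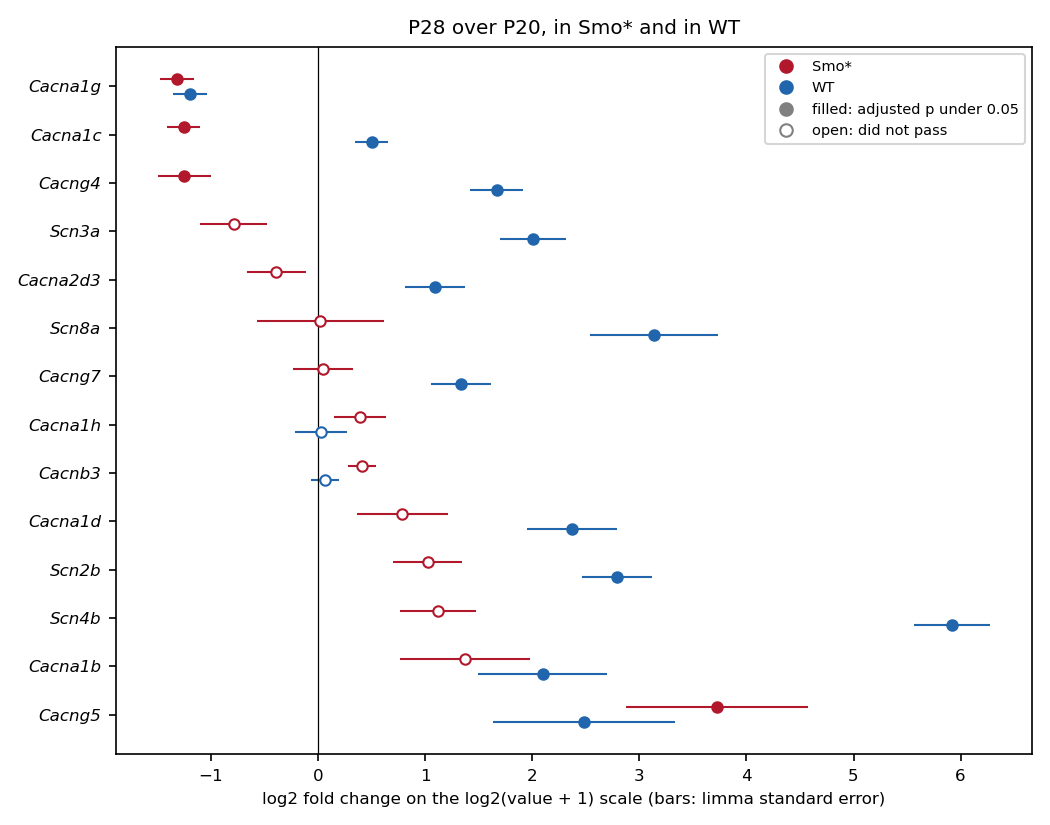
Log2 fold change of P28 over P20 for the 14 channel genes called in any comparison, in Smo* and in WT, with the limma standard error as bars and filled points for an adjusted p under 0.05. Cacna1g is negative in both genotypes, Cacng4 and Cacna1c are negative in Smo* and positive in WT, and Scn4b reaches 5.92 in WT.

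Markers of other cells moved with age as well. Between P28 Smo* and P20 Smo*, Alpl of the dermal papilla (2.28, limma adjusted p = 0.0291), Tek of endothelium (1.16, limma adjusted p = 0.0335) and the contractile genes Actg2 (1.96, limma adjusted p = 0.0207) and Tagln (1.44, limma adjusted p = 0.0241) were higher and Myocd lower (-1.38, limma adjusted p = 0.0116). The calls of Alpl, Tek, Actg2 and Tagln were each lost without P20 Smo* replicate 2 or 3 or P28 Smo* replicate 1. Between P28 WT and P20 WT, 9 of 12 dermal papilla markers were higher, against 13.5% of all genes, with Corin (7.11), Rspo4 (6.18) and Hhip (5.06) at the smallest adjusted p (limma adjusted p = 1.28e-05, 1.28e-05 and 1.58e-05). Of 15 smooth muscle and pericyte markers tested in WT, 3 were higher and 3 lower, against 13.5% and 11.9% of all genes. Tagln (1.30) and Actg2 (1.22) were higher in WT too, at limma adjusted p of 0.00610 and 0.0300, and Kcnj8 (-1.35) was lower (limma adjusted p = 0.00798). The call of Actg2 in WT was lost without P20 WT replicate 1 or 2 or P28 WT replicate 1 or 3. Neuron markers went both ways in WT, with Syt1 higher (3.38, limma adjusted p = 0.0178, a call lost without P20 WT replicate 2) and Tubb3 lower (-1.63, limma adjusted p = 0.00906), and summed to 197 to 261 in P28 WT and 185 to 293 in P20 WT. Schwann cell markers summed to 1504 to 1943 in P28 WT and 814 to 1211 in P20 WT. Of 7 tested, Cdh19 (3.15) and S100b (2.75) were higher, at limma adjusted p of 0.000796 and 0.00427. The median log2 fold change of the 7 was -0.09, against -0.01 over all genes, so the list did not rise as a whole. The part of these markers in the channel results was not tested.

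Many of the channel genes lie beside each other on a chromosome: 20 of the 40 fell into 8 groups with gaps of at most 500 kilobases (GRCm38). Scn2b (chr9:45117782-45130070) and Scn4b (chr9:45138395-45154152) lie on the same strand with 8324 bases between them, and both fell in P28 Smo* against P28 WT and rose in WT at P28. Neighbours did not always move together. Scn3a fell in P28 Smo*, while Scn2a, 53143 bases away, had 104 to 143 in P28 Smo* and 93.0 to 128 in P28 WT (log2 fold change 0.12, limma adjusted p = 0.802). Cacng4 and Cacng5 lie 80047 bases apart. At P20 Cacng4 was higher and Cacng5 lower in every Smo* library than in every WT library, where 16.4% of all genes did not overlap. Neither passed there (limma adjusted p = 0.0953 for Cacng4 and 0.155 for Cacng5). At P28 both had a negative log2 fold change in Smo* against WT, though that of Cacng5 did not pass. With age in WT both were called higher. Scn7a was abundant while its neighbours Scn9a and Scn1a stayed under the minimum for testing.

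**Figure D5:**
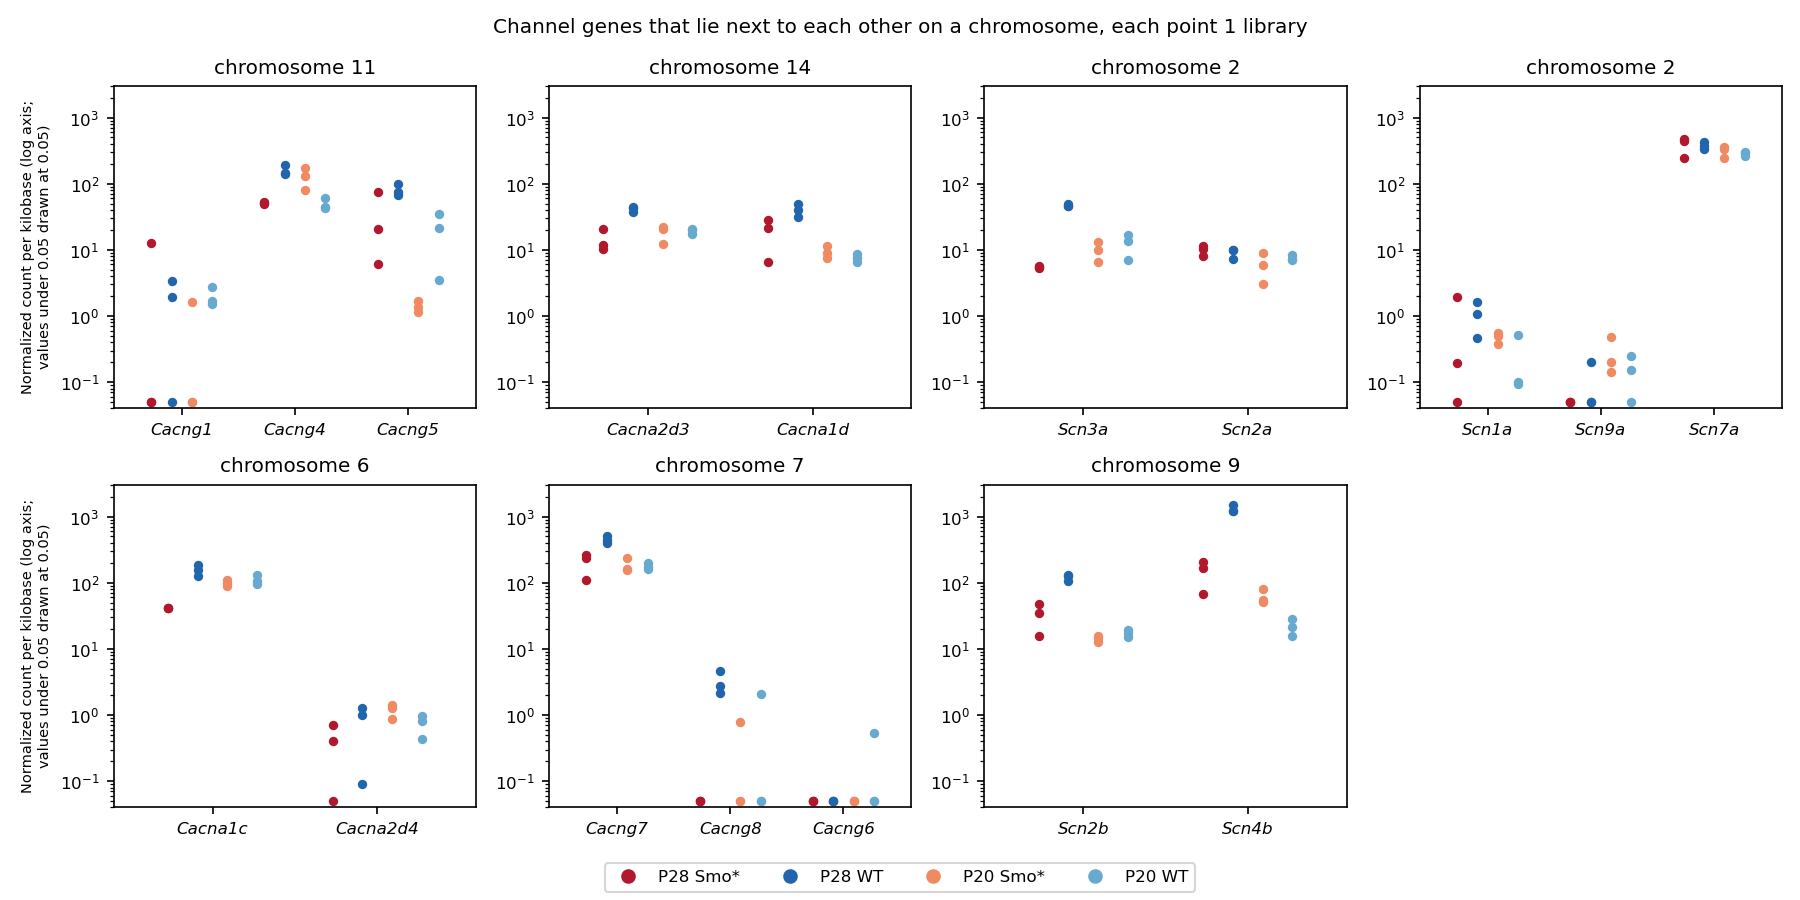
Normalized count per kilobase of exon (log axis, values under 0.05 drawn at 0.05) of channel genes that neighbour each other, in the 7 chromosome groups with a tested gene, each point 1 library. Colours mark P28 Smo*, P28 WT, P20 Smo* and P20 WT. Scn2b and Scn4b are both highest in P28 WT, whereas Scn2a and Scn3a differ in pattern.

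The promoters of Scn2b and Scn4b are shown because both of these adjacent genes fell in P28 Smo* and rose with age in WT. Each is the RefSeq window from 250 bases before to 50 after a RefSeq start (GRCm38.p6, plus strand). The windows are chr9:45117626-45117925 for Scn2b and chr9:45138374-45138673 for Scn4b. The gene positions given earlier come from another annotation (GENCODE), and their starts, 45117782 for Scn2b and 45138395 for Scn4b, lie inside these windows. Fewer than 250 bases before those starts were therefore searched. Capitals mark matches on either strand to the letters searched, which were GACCACCCA (known for GLI, the factors at the end of the Hedgehog pathway), CTTTGAT and CTTTGAA (both known for TCF/LEF, the factors of the Wnt pathway), TATAAA and GGGCGG.
Scn2b: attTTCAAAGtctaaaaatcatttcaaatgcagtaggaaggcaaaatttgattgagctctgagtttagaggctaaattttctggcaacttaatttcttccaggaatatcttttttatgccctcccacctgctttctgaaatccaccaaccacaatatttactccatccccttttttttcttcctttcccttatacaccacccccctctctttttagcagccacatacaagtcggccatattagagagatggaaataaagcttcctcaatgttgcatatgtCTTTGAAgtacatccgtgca
Scn4b: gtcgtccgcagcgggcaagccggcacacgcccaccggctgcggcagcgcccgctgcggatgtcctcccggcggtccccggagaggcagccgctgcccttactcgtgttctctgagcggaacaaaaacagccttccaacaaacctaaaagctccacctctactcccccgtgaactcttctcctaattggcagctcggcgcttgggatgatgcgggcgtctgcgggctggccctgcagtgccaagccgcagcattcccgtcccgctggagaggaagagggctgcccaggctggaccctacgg
The Scn2b window held CTTTGAA at 2 places, starting at bases 4 and 281 of the window, the first on the opposite strand. The Scn4b window held no match to any of the 5 sets of letters. A window was found for 30 of the 40 channel genes, 41 windows in all. Scn3a, Cacng4, Cacna1h and Cacna1g were among the genes without a window, so their promoters were not searched. GACCACCCA occurred in 2 of the 41 (Cacnb4 and Scn4a), against 0.25% of the 32851 windows searched. CTTTGAT occurred in 0 of the 41, against 3.73%, and CTTTGAA in 4, against 5.14%. TATAAA occurred in 2, against 13.62%, and GGGCGG in 16, against 35.66%. A match describes the letters only.

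Genes that work with these channels were counted from 4 lists, to be read against the 4.05% of all genes that were higher and the 4.85% that were lower in P28 Smo* than in P28 WT. Of 12 tested partners of sodium channels, 2 were higher and 1 lower in P28 Smo* than in P28 WT, with a list median of 0.09. Ank2, an ankyrin that anchors channels, had 5461 ± 613 in P28 Smo* and 2657 ± 283 in P28 WT (log2 fold change 1.04, limma adjusted p = 0.00325). Nalcn, a sodium leak channel, had 728 ± 434 in P28 Smo* and 141 ± 20.5 in P28 WT (2.12, limma adjusted p = 0.0360). Ank3, the ankyrin of the axon initial segment, was lower (-1.02, limma adjusted p = 0.0468). The call of Ank2 held on leaving out any of the 6 libraries. With single libraries left out, that of Nalcn held only without P28 Smo* replicate 3 and that of Ank3 only without P28 Smo* replicate 2.

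Of 14 tested regulators of calcium channels, 3 were lower and none higher in P28 Smo*, with a list median of 0.26. Stac, an adaptor that binds L-type channels, had 129 ± 135 in P28 Smo* and 1521 ± 277 in P28 WT (-4.04, limma adjusted p = 0.00671). Its relative Stac2 had 189 ± 10.4 in P28 Smo* and 647 ± 142 in P28 WT (-1.75, limma adjusted p = 0.00179). Cachd1, which resembles an alpha2delta subunit, had 2911 ± 401 in P28 Smo* and 6265 ± 366 in P28 WT (-1.11, limma adjusted p = 0.00233). The effect at P28 was lower than at P20 for Cachd1 (-1.02, limma adjusted p = 0.0177) and Stac (-4.00, limma adjusted p = 0.0206). Both of these calls were lost without P28 WT replicate 2, that of Cachd1 also without P20 WT replicate 2, and that of Stac also without P20 Smo* replicate 3 or P28 WT replicate 3.

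Of 18 tested genes for calcium stores, pumps and exchangers, 4 were higher and 4 lower in P28 Smo*, with a list median of -0.18. Itpr1, a channel that releases calcium from the endoplasmic reticulum, had 2309.9 ± 370 in P28 Smo* and 6835 ± 510 in P28 WT (-1.58, limma adjusted p = 0.000697), and Itpr3 was also lower (-0.74, limma adjusted p = 0.0153). Atp2b1, a plasma membrane calcium pump, was higher (1.23, limma adjusted p = 0.0147). The calls of Atp2b1 and Itpr3 were each lost without P28 WT replicate 2, that of Atp2b1 also without P28 WT replicate 3 and that of Itpr3 also without P28 WT replicate 1. Of 20 tested effectors of calcium signals, 3 were higher and none lower in P28 Smo*, with a list median of -0.01. Nfatc1, a transcription factor that calcineurin activates, had 3206 ± 673 in P28 Smo* and 919 ± 95.8 in P28 WT (1.78, limma adjusted p = 0.000938). Its relative Nfatc2 (1.96, limma adjusted p = 0.00482) and the kinase gene Camk2a (0.80, limma adjusted p = 0.0308) were also higher. The call of Camk2a was lost without P28 Smo* replicate 2, without P28 WT replicate 2 or 3 and in the paired fit, within 0.0280 to 0.124 over the libraries left out.

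At P20 Smo* against WT, limma called none of the 11 sodium channel partners, 15 calcium channel regulators and 18 store, pump and exchanger genes tested, with 2, 2 and 3 at an unadjusted p under 0.05 and none with edgeR or DESeq2. Among the 20 effectors, Camk2b, a calcium-dependent kinase gene, was lower (-1.01, limma adjusted p = 0.0325), at 202 ± 10.8 in P20 Smo* and 408 ± 39.5 in P20 WT. That call was lost on leaving out any of the 6 libraries. The Smo* effect at P28 was above that at P20 for 4 effectors, led by Nfatc1 (2.04, limma adjusted p = 0.00326), Camk2b (2.20, limma adjusted p = 0.0142) and Nfatc2 (2.08, limma adjusted p = 0.0172), the call of Nfatc2 being lost without P28 WT replicate 3. Over all genes 0.696% passed at P20 and 11.4% had an unadjusted p under 0.05 there, and 1.89% had a higher effect at P28. With age in Smo*, 1 sodium channel partner was higher, 2 regulators were lower and 1 store, pump or exchanger gene was higher and 1 lower. No effector was called by limma there, with 7 at an unadjusted p under 0.05, 1 called by edgeR and 2 by DESeq2. With age in WT, 2 of 11 sodium channel partners were higher and 2 lower, 3 of 15 regulators higher and 5 lower, 6 of 19 store, pump and exchanger genes higher and 3 lower, and 2 of 20 effectors higher and 5 lower. Over all genes 3.46% passed with age in Smo* and 22.8% had an unadjusted p under 0.05 there. With age in WT, 13.5% were higher and 11.9% lower.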

How the data were processed

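The 40 channel genes and the 13 lists (4 of channel partners, regulators, calcium stores and effectors, and 9 of cell markers) were chosen with earlier results of these data known, so counts over them are descriptions. Total RNA of sorted cells was depleted of ribosomal RNA and made into libraries with a kit that marks the strand, per the labels' protocols. Per the submitters' processing notes the tools were Trimmomatic, TopHat2 (version 2), HTSeq and DESeq2, and GRCm38.p4 and mm10 the genome builds; their roles are not stated. The authors deposited 1 table per age with normalized counts (unit signal), a log2 fold change that runs as WT over Smo*, a test statistic (a score), a p-value and an adjusted p-value. The deposited mean column equals the mean of all 12 libraries, so the tables were normalized together. The values rise in steps of 1 read, and 100% of them in each library came out whole to within 0.01 reads. The read totals recovered in this way were 36323058 to 48926831 per library. On these reads edgeR 4.0.16 (quasi-likelihood) called 93 genes at P20 and 1336 at P28, and DESeq2 1.42.0 called 480 and 2296. The main test was limma 3.58.1 (R 4.3.3) on log2(value + 1) with a trend of variance on mean, for genes with a mean of at least 10 in the libraries fitted, with Benjamini-Hochberg adjustment over all genes and a threshold of 0.05. The scripts were tested on simulated data. Genotype was tested on the 6 libraries of an age, and the interaction and the age comparisons in a 12-library fit. Symbols matched 25562 of 25887 identifiers (98.7%), and lengths are merged exons of a GENCODE annotation of GRCm38. Replicates are numbered in accession order. Each title carries its own number, with a meaning that is not stated. Libraries paired by nearest number had deviations that all correlated positively at P20 (0.128, 0.227 and 0.289), so the paired value is given there where it changes a call. Genes given per library are those called in any of 5 comparisons, the 8 highest per kilobase and the highest of each class. Of each list, called genes are named for some comparisons only, mostly up to 3 with the smallest adjusted p. In the other comparisons the calls of a list were given as counts or left out. The sources used here do not say how reads shared by related genes were counted. A permutation test of 3 libraries against 3 has a smallest exact p of 0.1. Alternatives were TMM scaling, pseudocounts of 0.5 and 5, a minimum mean of 50 or none, edgeR, DESeq2, leaving out each library, limma on 12 libraries or on the 6 of a genotype, the nearest-number block, the authors' adjusted p and the longest transcript as length. Some of the channel genes are not reported here.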

Additional observations from a re-analysis of the deposited data

Results flagged for a closer look

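For 5 channel genes the effect of Smo* over WT at P28 differed from that at P20 by the interaction term of the 12-library limma fit. The difference (P28 effect minus P20 effect, log2) was -4.80 for Scn4b, whose effects were -3.29 at P28 and 1.51 at P20. It was -2.92 for Cacng4, with -1.61 at P28 and 1.31 at P20. For Scn3a it was -2.79, with -3.09 at P28 and -0.30 at P20. Scn2b had -1.77, with -2.03 at P28 and -0.26 at P20. Cacna1c had -1.75, with -1.91 at P28 and -0.16 at P20. Age, stage of hair growth and sex cannot be told apart in these differences.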

How the results depend on the processing

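None of the log2 fold changes reversed while called, under the alternatives run. Of those recomputed, 2229 kept their side of the threshold, 191 no longer passed and 39 newly passed. Scn3a, Scn4b, Cacna1c and Cacng4 at P28 passed in all 16 alternatives. At P20 the main count of 0 channel genes became 3 with DESeq2, 2 by the authors' adjusted p, 1 with limma on 12 libraries, 1 with the replicate block of nearest title numbers, and 0 to 1 on leaving out a library. The P28 count of 9 became 12 by the authors' adjusted p and 10 with DESeq2, with no minimum mean or with limma on 12 libraries. It became 4 to 10 on leaving out a library (4 without P28 WT replicate 2 or 3). The count of 5 for the difference between ages became 9 with DESeq2 and 4 to 8 on leaving out a library (8 without P28 Smo* replicate 2). The count of 4 in Smo* between ages became 2 in the fit of the 6 libraries of that genotype and 2 to 8 on leaving out a library (2 without P20 Smo* replicate 1 or 3 or P28 Smo* replicate 1 or 2, 8 without P28 Smo* replicate 3). In WT the count of 12 became 13 with DESeq2 and 14 in the 6-library fit. It became 8 to 12 on leaving out a library (8 without P28 WT replicate 3). Over all genes the count of 102 at P20 became 480 with DESeq2, 342 by the authors' adjusted p, 239 with the block and 8 to 129 on leaving out a library. The 1313 at P28 became 2296 with DESeq2, 2880 by the authors' adjusted p, 2058 on 12 libraries and 461 to 1619 on leaving out a library. The 698 of the difference became 1482 with DESeq2 and 254 to 922 on leaving out a library. In Smo* between ages, 511 became 1615 with DESeq2, 69 in the 6-library fit and 49 to 1049 on leaving out a library. In WT 3761 became 4356 with DESeq2, 4351 in the 6-library fit and 2336 to 3139 on leaving out a library. At P28 the correlations of the paired libraries had mixed signs (0.178, -0.061 and -0.042). The first is of P28 Smo* replicate 1 and P28 WT replicate 2, the pair left over after closer numbers were joined. The block at P28 gave 7 channel genes, without Cacnb3 and Cacng7. Beside these and Cacng4 at P20 the block changed no channel call. No paired analysis was run for the age comparisons. With the longest transcript as length, chosen for the shares after seeing the data, Cacna1g held 64.3% to 85.0% and Cacna1c 6.43% to 20.5% of the alpha1 level in the group means. Of the genes given per library, Cacna1c, Cacna2d1, Cacna2d3 and Cacnb3 had levels that moved by more than their spread. The causes of these changes were not tested. Genes with a mean under 10 normalized counts were left out of the main test, and log2 folds of low genes are understated.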

Other observations

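Other cell types were looked for with 4 further marker lists, none of which held a gene past the limma threshold in any of the 5 comparisons. The counts below are to be read against all genes tested, of which 26.4% had an unadjusted p under 0.05 at P28 and 11.4% at P20. The 12 skeletal muscle markers summed to 370.3 to 446 normalized counts in P28 Smo* and 185 to 311 in P28 WT, and to 396 to 489.6 in P20 Smo* and 257 to 312 in P20 WT, and Tnnc2 was at 0 in all 12 libraries. Of the 6 muscle markers tested, 1 had an unadjusted p under 0.05 at P28 and 1 at P20, and edgeR called 0 and DESeq2 1 at each age. The 6 melanocyte markers summed to 1059 to 1684 in P28 Smo* and 912 to 1531 in P28 WT, with 0 of 5 tested under an unadjusted p of 0.05 at P28 and 0 called by edgeR or DESeq2. The 8 keratinocyte markers summed to 268 to 450 in P28 Smo* and 766 to 995 in P28 WT. These keratinocyte sums did not overlap between the groups, and the skeletal muscle sums did not overlap at either age. Of all single genes tested, 33.4% did not overlap at P28 and 16.4% at P20. Of the 8 keratinocyte markers, 3 had an unadjusted p under 0.05 at P28, edgeR called 0 and DESeq2 1. The 7 immune cell markers summed to 151 to 342 in P28 Smo* and 204 to 360 in P28 WT, with 2 of 4 tested under an unadjusted p of 0.05 at P28 and 0 called by edgeR or DESeq2.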
